A study of Bos taurus with 96 samples.

Results

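Liver and skeletal muscle of the same lactating Holstein cows were compared at mid lactation, as liver minus muscle within each of 16 cows. The members are the 32 mid-lactation libraries, 16 of liver and 16 of muscle, out of 96 libraries in the series, and they were chosen by the tissue, time-point and cow number that the sample labels give. The study biopsied the same cows at late pregnancy (LP), early lactation (EL) and mid lactation (ML) to compare 2 genotypes, Fert+ and Fert-, in each tissue. Polyadenylated RNA was sequenced as 100 bp read pairs and counted per gene.

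Fert+ cows had good and Fert- cows poor genetic merit for fertility, with calving interval as the trait behind the ranking, and each genotype is represented by 8 cows. All 16 cows belonged to 1 herd, were in their first or second lactation and were not bred during it, and the genotypes were pooled here. Liver came from a puncture biopsy and muscle from a punch biopsy of the semitendinosus in the hind leg. Such pieces hold every cell type at the site, so in these bulk libraries fewer cells of a type and less RNA per cell cannot be told apart. The tissues differ in biopsy method and site as well as in identity, which cannot be told apart either.

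The liver of a dairy cow makes glucose for the udder from propionate, lactate and amino acids, detoxifies ammonia as urea, assembles lipoproteins and secretes most plasma proteins. Skeletal muscle turns chemical energy into force through the sarcomere, buffers that energy with creatine phosphate, burns fuel in its mitochondria and is the largest store of protein and glycogen to be called on. The tissues often carry separate genes for the same enzyme, and muscle lacks glucose-6-phosphatase activity, so its glycogen feeds the fibre itself.

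The library totals ran from 15766907 to 25254407 counts in liver and from 15795921 to 22018740 in muscle. Levels are CPM (counts for every 1000000 of a library) after TMM scaling, which corrects for a few genes that take a large part of a library. They carry no correction for gene length and are compared within a gene only. A ratio is liver over muscle on the log2 scale, fitted over 16 cows. Its standard error (SE) is approximate, the size of the ratio over the square root of the F statistic of edgeR's quasi-likelihood test. It is not the spread of the ratios of single cows. A gene was called at an adjusted p below 0.05 and called past 2-fold when its ratio differed from 2-fold in either direction by the same threshold. Gene symbols could be given to 2251 of 24616 identifiers, from the identifier and symbol columns of tables that list genes abundant in a tissue or called between genotypes, so named genes are a selected subset.

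The labelled tissues were checked against 12 hepatocyte and 11 muscle fibre genes. The summed hepatocyte genes reached 81608, 146514 and 212112 CPM in liver (lowest, median and highest library), and the summed fibre genes 196954, 241200 and 303013 CPM in muscle. Every library carried the genes of its label. Fibre genes summed to no more than 9.42 CPM in any liver library, most of it from the calcium release channel gene RYR1. Without RYR1 the highest liver library held 1.14 CPM, and 8 of the 11 genes had a liver median of 0.

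The opposite check set some muscle libraries apart. The summed hepatocyte genes were at 3.41, 13.2 and 196 CPM in muscle, and 5 muscle libraries, from cows 33, 996, 1000, 1179 and 3445, held 70.3 to 196 CPM while the other 11 held 3.41 to 26.2 CPM. These 5 cows are 2 Fert+ and 3 Fert- animals. Results that lean on them are given with and without these cows, a limit of 50 CPM that was set after the values were seen. A separate set of 13 of the 96 libraries carried counts for at least 11 of 19 genes that have a median of at most 2 counts over the series, against at most 3 of the 19 in any other library, and nothing in the labels names a cause. At ML it held 3 liver and 2 muscle libraries, from 5 cows (164, 419, 430, 829 and 3847), and no cow with both, so a value within that set could not be had.

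Most genes differed between liver and muscle. Of 13346 genes tested, 11902 were called (89.2%), of which 6113 were higher in liver (45.8%) and 5789 higher in muscle (43.4%) by edgeR's quasi-likelihood test with Benjamini-Hochberg adjustment. Past 2-fold there were 6733 genes (50.4%), 3780 higher in liver (28.3%) and 2953 higher in muscle (22.1%). In 3823 genes every liver library stood above every muscle library (28.6%), and in 3415 the order was the reverse (25.6%), together 54.2%. The median ratio over all tested genes was 0.04 and the median size of the ratio was 1.17, on the log2 scale. The split depended on the scaling. With no scaling beyond the library total the median ratio was 0.41 and 62.5% of the calls were higher in liver, against 51.4% with TMM, and past 2-fold 66.6% against 56.1%. Within the 11 cows with no library in the set of 13, 5924 genes were higher in liver and 5527 in muscle, of 13178. Among the 1882 tested genes with a name, 42.8% were higher in liver and 49.8% in muscle, 34.7% were past 2-fold in liver and 36.9% in muscle (71.6% together), and 31.5% and 35% had no overlap of libraries. The counts of list members below are to be read against these shares.

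**Figure D1:**
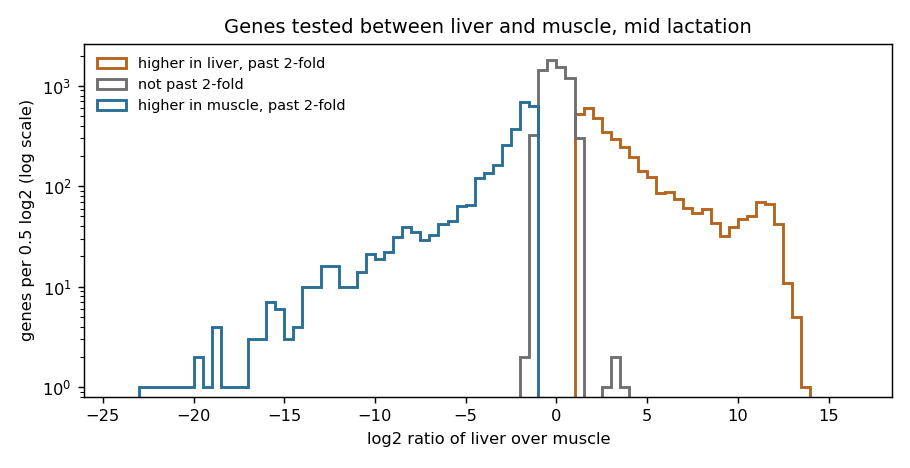
Number of genes per 0.5 log2 of the liver over muscle ratio at mid lactation, on a log scale, for 13346 tested genes. The muscle side reaches further, to about 23 log2, and the liver side shows a shoulder between 10 and 14 log2 that holds the 292 genes over 10 log2 higher in liver, against 149 genes over 10 log2 higher in muscle.

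More genes were detected in liver, and the most abundant genes took a larger share in muscle. A liver library held 15248, 16135 and 17021 genes with at least 1 count (lowest, median and highest), a muscle library 14942, 15280 and 15678, and the count was larger in the liver of 15 of 16 cows (exact sign-change permutation test over cows, two-sided p = 6.1e-05). The library totals also differed, in the same direction in 12 of 16 cows (exact permutation p = 0.00397). With genes counted from 1 CPM upward the liver library was higher in 16 of 16 cows (p = 3.05e-05, the smallest that this exact permutation can give). The 10 most abundant genes held 19.6, 25.4 and 28.4% of the counts of a liver library and 29.8, 31.2 and 33.4% of a muscle library, and these ranges did not overlap.

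In liver the largest share belonged to ALB, serum albumin, with 9.70% of the counts in the median library and a range of 4.97 to 12.8%. The mitochondrial COX1, a core subunit of cytochrome c oxidase, followed with 3.56%, then the complement protein C3 with 2.85%, fibrinogen beta FGB with 1.86% and transferrin TF, the iron carrier, with 1.52%. In muscle COX1 came first with 6.16%, followed by the fast myosin heavy chain MYH1 with 6.07%, skeletal actin ACTA1 with 4.80%, aldolase ALDOA with 2.63% and the giant elastic protein TTN with 2.59%. COX1 thus ranked high in both tissues, and its ratio of -1.14 ± 0.13 (SE) was higher in muscle in 16 of 16 cows but not past 2-fold.

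Secreted plasma proteins led the liver side. All 20 plasma protein genes that could be tested were past 2-fold in liver, with a median ratio of 12.15. ALB was at 37558, 82873 and 128580 CPM in liver and at 0.126, 6.36 and 115 CPM in muscle, a ratio of 13.36 ± 0.87. TF was at 8178, 13497 and 22734 CPM in liver and at 0, 0.961 and 17.6 CPM in muscle, a ratio of 12.89 ± 0.71. In both genes every liver library stood far above every muscle library. The smallest ratios in the list were those of AGT, the angiotensin precursor, with 8.49 ± 0.20, and ITIH4, an inter-alpha-trypsin inhibitor chain, with 7.69 ± 0.21, and ITIH4 had a muscle level of 5.97 to 17.5 CPM that the other chains did not share.

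Haptoglobin, HP, an acute-phase protein that binds free haemoglobin, was the 1 plasma protein whose liver and muscle libraries overlapped. It was at 22.8, 394 and 23954 CPM in liver and at 0.0553, 0.253 and 27.5 CPM in muscle, a ratio of 10.69 ± 0.40. Its liver levels spread over 3 orders of magnitude between cows, wider than those of ALB or TF.

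Coagulation, complement and lipoprotein genes followed the plasma proteins. All 13 coagulation genes were past 2-fold in liver (median ratio 11.66), from fibrinogen alpha FGA with 13.26 ± 0.78 down to PROS1, the anticoagulant protein S, with 6.84 ± 0.12. All 16 complement genes were past 2-fold in liver (median 10.34), with C9 of the membrane attack complex at 12.31 ± 0.57 and CFD, also known as adipsin, at 3.64 ± 0.20. Of 11 apolipoprotein genes 10 were past 2-fold in liver and 1 in muscle (median 11.01). APOB, the backbone of very low density lipoprotein, was at 908, 1732 and 2599 CPM in liver and at 0, 0.117 and 1.54 CPM in muscle, a ratio of 12.53 ± 0.48. APOD went the other way, with 0.064, 0.318 and 2.25 CPM in liver against 12, 28.4 and 46.9 CPM in muscle, a ratio of -5.86 ± 0.26. APOE, which many cell types make, had a smaller ratio of 7.99 ± 0.15 and was found in every muscle library, from 7.10 to 22.6 CPM.

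The height of these ratios rested in part on the 5 muscle libraries set apart above. Without their cows the median ratio rose from 12.15 to 13.60 for the plasma proteins, from 11.66 to 13.33 for coagulation and from 11.01 to 13.30 for the apolipoproteins, and ALB rose to 14.58. The cows were chosen by high muscle levels of hepatocyte genes, among them ALB, FGA and APOB of these lists. These rises therefore follow in part from the choice. Genes with a steady level in all muscle libraries moved little, as AGT went to 8.40, ITIH4 to 7.64 and APOE to 8.06. The complement median went from 10.34 to 10.90. No call past 2-fold in these 4 lists changed where the gene could be tested, and CFD could not be tested without these cows.

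Glucose production was on the liver side. All 8 gluconeogenesis genes were past 2-fold in liver, with a median ratio of 8.66. PCK1, the cytosolic enzyme that turns oxaloacetate into phosphoenolpyruvate, was at 1289, 2706 and 4898 CPM in liver and at 0.236, 0.501 and 4.13 CPM in muscle, a ratio of 11.63 ± 0.37. G6PC, glucose-6-phosphatase, the last step before free glucose leaves the cell, was at 327, 410 and 985 CPM in liver and at 0, 0.222 and 1.22 CPM in muscle, a ratio of 10.67 ± 0.25. The mitochondrial PCK2 had a ratio of 8.62 ± 0.15. The entry steps were less one-sided. PC, pyruvate carboxylase, reached 15.6 to 35.5 CPM in muscle and 140 to 768 CPM in liver (ratio 3.41 ± 0.18), and MUT, the mutase on the path from propionate, had a ratio of 3.61 ± 0.11.

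Nitrogen disposal was on the liver side as well. The 4 urea cycle genes tested were past 2-fold in liver (median 10.97). CPS1, which fixes ammonia in the first step, was at 2949, 4163 and 5276 CPM in liver and at 0, 0.404 and 4.87 CPM in muscle. ASS1 was the one with a level in all muscle libraries, 27.5 to 69.8 CPM, and its ratio was 5.37 ± 0.14 against 12.47 ± 0.56 for CPS1. Of 12 amino acid breakdown genes 11 were past 2-fold in liver (median 10.52), among them TDO2 for tryptophan with 12.11 ± 0.23. The exception was AASS, the first enzyme of lysine breakdown, with 6.19 to 22.0 CPM in liver and 12 to 21.1 CPM in muscle, which was not called (-0.18 ± 0.12, adjusted p = 0.15 by edgeR's quasi-likelihood test), and which turned to 0.18 with no scaling. TDO2 had 15 counts in all 16 muscle libraries together and KMO, a later enzyme on the same path, had 1.

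Sterol and xenobiotic genes followed the same side. The 4 bile acid genes were past 2-fold in liver (median 11.50), and CYP7A1, the rate-limiting enzyme of bile acid synthesis, was at 85.3, 200 and 371 CPM in liver with 12 counts in the 16 muscle libraries together. The 8 cholesterol synthesis genes were past 2-fold in liver (median 5.34), with a muscle level in every library. All 12 drug metabolism genes were past 2-fold in liver (median 9.38), with CYP2E1 at 12.51 ± 0.65 and the sulfotransferase SULT1A1 lowest at 4.98 ± 0.08. CAT, catalase, which breaks down hydrogen peroxide, took 0.790% of the counts of the median liver library and had a ratio of 4.92 ± 0.13.

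On the muscle side, the contractile machinery was close to absent from the liver libraries. All 41 sarcomere genes were past 2-fold in muscle, with no overlap in any of them and a median ratio of -14.18, which was the same with the 7 members that had no liver count placed at the limit of 3 counts. MYH1 was at 47544, 72484 and 105428 CPM in muscle and had 1 count in the 16 liver libraries together, a ratio of summed CPM of 27676614 in favour of muscle, with a 95% counting interval from 4967405 to 1.09e+09. MYH2, another fast myosin, had no count in 327795242 liver counts, and at the limit of 3 counts over the group its level in muscle was at least 3393905-fold higher. The slow myosin MYH7 and the light chains MYL1 and MYL2 also had no liver count, which gave at least 2204461-fold, 1496682-fold and 840165-fold. Intervals and limits cover counting error only. Myosin genes share long stretches of sequence, so the split of reads among MYH1, MYH2 and MYH7 within muscle is uncertain, while their near absence in liver is not touched by it.

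Some sarcomere genes had a liver level of their own. TPM3, a tropomyosin with a cytoskeletal form, was at 92.0, 105 and 138 CPM in liver and at 1335, 2308 and 3128 CPM in muscle, and had the smallest ratio of the list, -4.41 ± 0.12. TPM1 was at 16.1 to 28.8 CPM in liver, with a ratio of -8.94 ± 0.17. MYOM1, an M-band protein, had a wide spread in liver, from 12.1 to 209 CPM.

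Excitation and calcium handling genes were also on the muscle side. All 14 tested genes of excitation and calcium handling were past 2-fold in muscle (median -11.55). RYR1, which releases calcium from the sarcoplasmic reticulum, was at 6036, 7905 and 9995 CPM in muscle and at 2.19, 4.43 and 8.83 CPM in liver, a ratio of -10.82 ± 0.20. CHRNE, a subunit of the acetylcholine receptor, had the smallest ratio, -1.48 ± 0.18. CKM, muscle creatine kinase, had 6 counts in all liver libraries and 5495931 in all muscle libraries, and MB, the oxygen store myoglobin, had 5 in liver and 1835696 in muscle.

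The list of 8 creatine and energy buffering genes was divided, with 6 past 2-fold in muscle and 2 in liver. The 2 in liver were the enzymes of creatine synthesis. GATM, which forms guanidinoacetate, was at 902, 1983 and 4870 CPM in liver and at 3.32, 15.1 and 48.3 CPM in muscle (ratio 7.02 ± 0.22), and GAMT, which methylates it, was at 305, 389 and 427 CPM in liver and at 23.2, 52.7 and 66.7 CPM in muscle (ratio 2.97 ± 0.12).

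The muscle regulators MYOG, a transcription factor of fibre formation, and SIX2 had no liver count, and at the limit of 3 counts were at least 3534-fold and 257-fold higher in muscle. MYF6 was at 45.9, 71.3 and 100.2 CPM in muscle, with a ratio of -10.25 ± 0.13. MSTN, the secreted brake on muscle growth, was at 4.37, 15 and 44.5 CPM in muscle and had no liver count, at least 2212-fold. For the liver only 2 of the listed transcription factors had a name, and both ONECUT2 and ATF5 were past 2-fold in liver.

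Genes of muscle protein breakdown were on the muscle side in 6 of 7 cases, 5 of them past 2-fold (median -5.05). FBXO32, a ubiquitin ligase that marks muscle protein for degradation, was at 43.1, 72.9 and 201 CPM in muscle and at 1.22 to 3.03 CPM in liver, a ratio of -5.05 ± 0.18. TRIM63, another such ligase, had 2 counts in all liver libraries, a ratio of summed CPM of 15460 in favour of muscle with a 95% counting interval from 4279 to 127662. Its relative TRIM54 had 1 liver count. The muscle calpain CAPN3 and BNIP3, a mitophagy receptor, completed the 5 with -12.51 ± 0.23 and -2.81 ± 0.08. The lysosomal protease CTSL was the one on the liver side, with a ratio of 4.34 ± 0.10.

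**Figure D2:**
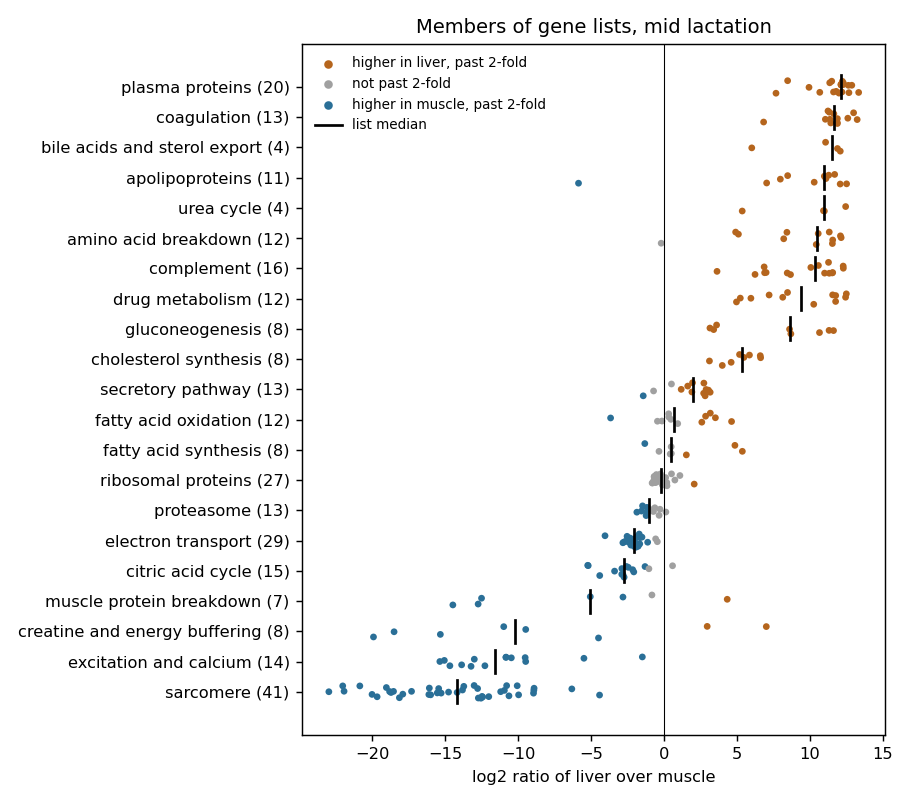
Ratio of liver over muscle (log2) of each tested member of 21 gene lists, with the number tested in brackets and the list median as a bar. The lists of plasma proteins and of gluconeogenesis have medians of 12.15 and 8.66, those of the sarcomere and of excitation -14.18 and -11.55, and those of electron transport and the citric acid cycle -2.03 and -2.73.

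Both tissues burn fuel in mitochondria. Electron transport ratios ran from -4.04 to -0.45, smaller in size than those of the sarcomere list. All 29 electron transport genes encoded in the nucleus were higher in muscle and 27 of them past 2-fold, with a median ratio of -2.03. ATP5B, the catalytic subunit of ATP synthase, was at 329, 442 and 581 CPM in liver and at 1678, 2112 and 2472 CPM in muscle, a ratio of -2.22 ± 0.10. UQCRB of the third complex had the largest ratio, -4.04 ± 0.11. The 2 genes under 2-fold both belong to succinate dehydrogenase, SDHA with -0.45 ± 0.07 and SDHC with -0.57 ± 0.11. Without scaling beyond the library total these 2 ratios were -0.08 and -0.20.

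The citric acid cycle and the pyruvate dehydrogenase complex gave the same side for 14 of 15 genes, 13 of them past 2-fold (median -2.73). CS, citrate synthase, was at 16.4, 21.2 and 29.2 CPM in liver and at 363, 443 and 549 CPM in muscle, a ratio of -4.40 ± 0.08. The 2 forms of the succinyl-CoA ligase beta subunit parted. SUCLA2, the ATP-forming one, was at 10.7 to 15.4 CPM in liver and at 353 to 573 CPM in muscle (ratio -5.22 ± 0.09), whereas SUCLG2, the GTP-forming one, was at 233 to 451 CPM in liver and at 154 to 246 CPM in muscle (ratio 0.59 ± 0.08, higher in liver in 16 of 16 cows). PDK4, the kinase that shuts the pyruvate dehydrogenase complex, was at 49.4, 92.6 and 272 CPM in liver and at 256, 744 and 2020 CPM in muscle, a ratio of -2.85 ± 0.16, and PDP2, a phosphatase that reopens it, had a ratio of 3.39 ± 0.16.

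Fatty acid oxidation genes were mostly higher in liver, with 9 of 12 called on that side and 2 in muscle. Past 2-fold there were 5 in liver and 1 in muscle, and the median ratio was 0.71. CPT1B, the muscle form of the gate for fatty acids into mitochondria, was at 2.62, 4.41 and 10.8 CPM in liver and at 51.3, 65.8 and 71.1 CPM in muscle (ratio -3.65 ± 0.16). The peroxisomal EHHADH was at 276, 483 and 645 CPM in liver and at 5.89, 21.6 and 28.4 CPM in muscle (ratio 4.64 ± 0.15). ACAA2 and ECHS1, late steps of the mitochondrial spiral, were higher in liver with 2.86 ± 0.09 and 3.18 ± 0.11, as were ACADS, the dehydrogenase for short chains, and ECI1, an isomerase for unsaturated chains, with 2.60 ± 0.09 and 3.53 ± 0.09. HADHA, which carries the middle steps for long chains, had overlapping libraries and was not called (-0.13 ± 0.09, adjusted p = 0.15 by edgeR's quasi-likelihood test), a direction that turned to 0.24 with no scaling. It was called higher in muscle with upper-quartile scaling, at -0.18, and without cow 996, at -0.19.

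Fatty acid synthesis genes were similar in level or mixed, with 3 of 8 past 2-fold in liver and 1 in muscle (median 0.51). FASN, fatty acid synthase, was at 10.4, 68.9 and 135 CPM in liver and at 31.3, 41.7 and 83.5 CPM in muscle, and SCD, the stearoyl-CoA desaturase, at 10.1, 101 and 196 CPM in liver and at 37.2, 52.7 and 133 CPM in muscle. The libraries of the tissues overlapped for both genes, and neither was called, with ratios of 0.50 ± 0.24 and 0.43 ± 0.26 and adjusted p of 0.054 and 0.12 by edgeR's quasi-likelihood test. FASN lay at the threshold. Without scaling FASN was called higher in liver at 0.88, and SCD at 0.81. With RLE scaling (0.53), without robust estimation (0.50) and with DESeq2 (0.52) FASN was called as well. The same held without the pairing by cow (0.59) and without the 5 cows set apart (0.55). SCD was called without the pairing too (0.63). With upper-quartile scaling or no filter on low counts neither was called. FASN was also called when cow 426, 829, 982, 996 or 1000 was left out (0.55 to 0.62), and SCD without cow 426, 829 or 996 (0.56). In Fert+ cows alone the ratios were 1.05 and 1.0 and both were called, and in Fert- cows alone they were -0.08 and -0.17 and neither was. The difference between the genotypes was not called (adjusted p = 0.47 and 0.49 by edgeR's quasi-likelihood test). ELOVL5, which elongates polyunsaturated fatty acids, had the largest ratio, 5.38 ± 0.18, followed by THRSP, a regulator of lipid synthesis, with 4.87 ± 0.30 and ACACA, the carboxylase that commits acetyl-CoA to synthesis, with 1.54 ± 0.13. LPIN1, a phosphatidate phosphatase, was the one past 2-fold in muscle (-1.31 ± 0.18). Of the ketone body genes, ACSM1, an acyl-CoA synthetase of the liver, had 10.20 ± 0.23, ACAT1, the thiolase at both ends of the path, had 1.06 ± 0.09 and was not past 2-fold, and SLC16A1, a transporter of lactate and ketones, was past 2-fold in muscle (-1.50 ± 0.11).

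Separate genes for 1 enzyme divided between the tissues. Of 33 pairs with a liver form and a muscle form, both forms could be named and tested in 7, and in 5 of these the forms were past 2-fold in opposite directions. Glycogen phosphorylase, which releases glucose units from glycogen, was represented by PYGL at 292, 538 and 647 CPM in liver and 5.03, 6.61 and 9.82 CPM in muscle, and by PYGM at 0, 0.0775 and 0.228 CPM in liver and 8429, 10906 and 14498 CPM in muscle. Among the other divided pairs, fructose-bisphosphatase was represented by FBP1 (8.71 ± 0.23) and FBP2 (-7.95 ± 0.68), fatty acid-binding protein by FABP1 (10.87 ± 0.44) and FABP3 (-6.90 ± 0.13), and subunit 6A of cytochrome c oxidase by COX6A1 (2.98 ± 0.08) and COX6A2 (-12.34 ± 0.18).

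The other 2 pairs were not divided. Both calcium pump genes were past 2-fold in muscle, ATP2A1 with -15.36 ± 0.34 and ATP2A2 with -5.48 ± 0.14. LDHB, the lactate dehydrogenase subunit assigned to the liver side, was at 150, 221 and 414 CPM in liver and at 116, 180 and 231 CPM in muscle and differed by less than 2-fold (0.46 ± 0.14, higher in liver in 11 of 16 cows), while LDHA was at 8.69, 14.6 and 29.8 CPM in liver and at 871, 1738 and 2356 CPM in muscle (-6.83 ± 0.20). Counting pairs with 1 tested form, all 27 muscle forms were past 2-fold in muscle, and of 9 liver forms 6 were past 2-fold in liver and 2 in muscle. The 2 were ATP2A2 and GPD1, the glycerol phosphate dehydrogenase, with -1.95 ± 0.11. FBP2 had a wide spread in liver, from 0.0911 to 20.2 CPM.

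**Figure D3:**
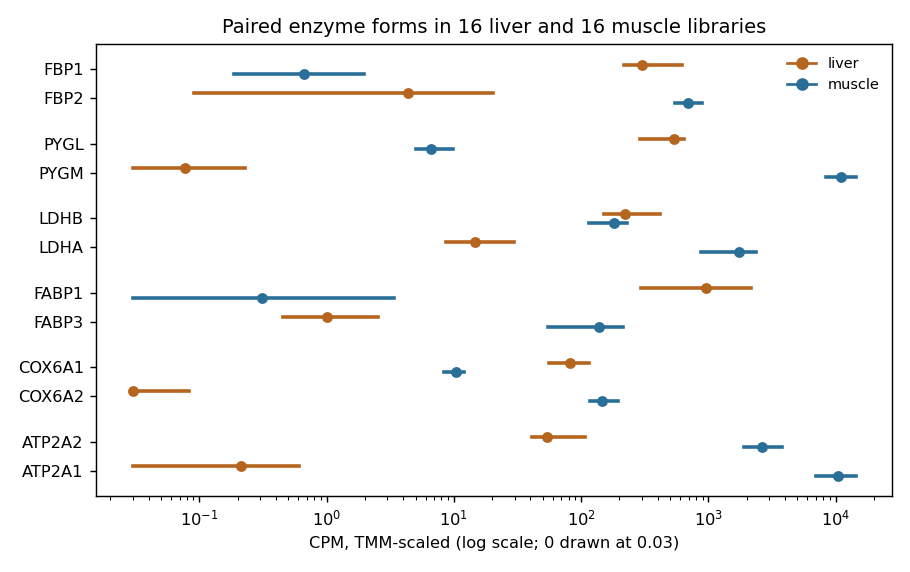
Level of both forms of 6 enzyme pairs, in CPM on a log scale, as the median (point) and the lowest to highest (line) of 16 liver and 16 muscle libraries. Levels are to be read within a gene. LDHB is the gene whose lines overlap, and both calcium pump genes lie higher in muscle.

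The growth hormone and insulin-like growth factor axis was mostly on the liver side, with 6 of 11 genes past 2-fold in liver and 1 in muscle (median 1.99). IGF1, the hormone that the liver releases under growth hormone, was at 2.33, 11.7 and 27.2 CPM in liver and at 0, 0.281 and 0.640 CPM in muscle, a ratio of 5.37 ± 0.31. IGF2 was at 1302, 1772 and 2922 CPM in liver and at 131 to 305 CPM in muscle (3.34 ± 0.13). The carriers IGFBP1 and IGFBP2 had ratios of 10.48 ± 0.22 and 10.91 ± 0.44, and IGFBP1 ranged from 29.5 to 939 CPM between livers. The feedback inhibitors of cytokine signals parted, SOCS2 with 1.99 ± 0.16 and CISH with -2.72 ± 0.19.

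Secreted liver factors other than plasma proteins were past 2-fold in liver in 5 of 6 cases (median 9.67). HAMP, the iron hormone hepcidin, was at 25.6, 46.1 and 82.2 CPM in liver and had 6 counts in all muscle libraries. ANGPTL4, an inhibitor of lipoprotein lipase that fasting raises, was the exception, with 7.34, 12 and 116 CPM in liver and 12.4, 28.7 and 51.6 CPM in muscle, and was higher in muscle in 14 of 16 cows (-0.99 ± 0.23). In Fert- cows alone its ratio was -0.47 and was not called.

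The secretory pathway, through which plasma proteins leave the cell, had ratios far smaller than its cargo. Of 13 genes 10 were past 2-fold in liver and 1 in muscle (median 1.96). P4HB, protein disulfide isomerase, was at 771, 1282 and 2481 CPM in liver and at 125, 145 and 194 CPM in muscle (3.17 ± 0.11), and the chaperone CALR had 2.89 ± 0.12. SAR1B, a GTPase of the vesicles that leave the endoplasmic reticulum, was past 2-fold in muscle (-1.42 ± 0.09).

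Housekeeping genes were not equal between the tissues. Among 16 tested genes that are used as references in expression work, 2 were past 2-fold in liver and 3 in muscle, and 8 more were higher in muscle by less. Calls past 2-fold were thus rarer here than among all named genes (71.6%). PPIA, cyclophilin A, was at 106, 137 and 237 CPM in liver and at 19.0, 25.9 and 43.6 CPM in muscle (2.38 ± 0.09). PGK1, a glycolytic enzyme, was at 70.2, 98.0 and 127 CPM in liver and at 813, 1325 and 1966 CPM in muscle (-3.79 ± 0.12). EEF1A2, a muscle and nerve form of the elongation factor, had 12 counts in all liver libraries. It is also the muscle form of an enzyme pair, so it does not stand for genes that both tissues use. The other 2 past 2-fold were B2M, the light chain of class I histocompatibility molecules, with 1.28 ± 0.10, and REEP5, a protein that shapes the endoplasmic reticulum, with -2.37 ± 0.14. Of the genes that were not called, TFRC, UBB and KLF6, the ratios were 0.05 ± 0.20, -0.13 ± 0.13 and -0.08 ± 0.12, and the sign of each turned under some scaling or choice of cows.

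Of 27 ribosomal protein genes only RPL3 was past 2-fold, at 206, 241 and 345 CPM in liver and 38.5, 58.1 and 81.6 CPM in muscle (2.08 ± 0.08). The median of the list was -0.21, a direction that depended on the scaling, since it was 0.16 with no scaling beyond the library total. Proteasome genes leaned to muscle, with 6 of 13 past 2-fold (median -1.05), led by the regulatory ATPase PSMC3 with -1.85 ± 0.07.

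Other cell types of the biopsies also differed. All 6 macrophage and Kupffer cell genes were past 2-fold in liver (median 6.96), with summed levels of 821 to 1667 CPM in liver and 3.83 to 17.1 CPM in muscle. MARCO, a scavenger receptor of Kupffer cells, was at 19.7, 53.5 and 140 CPM in liver and had 5 counts in all muscle libraries. All 6 bile duct genes were past 2-fold in liver (median 4.08), from CFTR, a chloride channel with 2877 counts in all liver and 2 in all muscle libraries, to SPP1, osteopontin, with 3.07 ± 0.50. Of 4 fat cell genes 3 were past 2-fold in muscle, with ADIPOQ, adiponectin, at 1.62, 9.05 and 46.1 CPM in muscle and 1 count in liver. The others were LPL, lipoprotein lipase, which the fibre makes too, with -4.83 ± 0.19 and the fatty acid carrier FABP4 with -3.93 ± 0.35. The endothelial genes were split, with VWF and CLDN5 past 2-fold in muscle (-2.52 ± 0.17 and -2.23 ± 0.14) and TEK in liver (1.26 ± 0.08). Of the neutrophil genes S100A9 and S100A12 were past 2-fold in liver (2.41 ± 0.35 and 2.87 ± 0.40). The smooth muscle genes CNN1 and LMOD1 were past 2-fold in muscle (-2.48 ± 0.32 and -3.59 ± 0.15). Matrix genes were split too, with POSTN at 6.83 ± 0.30 and LUM at -1.50 ± 0.14. The number of each cell type in the biopsies was not measured, and its part in the ratios of genes that several cell types use was not tested.

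Early-response genes that tissue handling can induce were counted as well. Of 8 such genes 3 were past 2-fold in muscle, a share close to that of all named genes (36.9%), with overlapping libraries in each, and 2 were past it without the 5 cows set apart. The 3 were FOS, ATF3 (-1.52 ± 0.24) and DUSP1 (-2.31 ± 0.25). FOS was at 0.704, 2.18 and 8.97 CPM in liver and at 4.26, 15.3 and 305 CPM in muscle (-3.55 ± 0.68). The summed level of the 8 genes was 369 to 663 CPM in liver and 630 to 2261 CPM in muscle. Its part in other results was not tested.

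In the 5 cows set apart, most hepatocyte genes stood in muscle at a small fraction of their level in the liver of the same cow. This fraction varied between genes. In their muscle all 12 hepatocyte genes were found, with 1030 to 3368 counts in all. All 12 were also found in the muscle of cows 164, 426, 782 and 3434, and the other 11 cows held 54 to 422 counts. Expressed as CPM in muscle for every 1000000 CPM in the own liver, the median of the 12 genes was 421 to 1230 in the 5 cows and 0 to 274 in the other 11. The 5 cows were chosen by the summed muscle level of these 12 genes, so this gap follows in part from the choice. In cow 996 the genes other than APOA1 ran from 582 for APOB to 3639 for TTR, a carrier of thyroxine, with 824 for ALB, 861 for FGA, 1012 for FGB and 913 for FGG. The liver of this cow held 2.98, 3.25 and 3.32 times the median liver level of FGA, FGB and FGG and 0.78 times that of ALB. In cow 1179 the genes other than APOA1 ran from 853 to 1682 and in cow 33 from 788 to 2358. In cow 1000 they ran from 227 to 595 and in cow 3445 from 242 to 715. A match to the livers of other cows was not tested.

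The livers of these 5 cows held 144111 to 212112 CPM of summed hepatocyte genes against 81608 to 191540 in the other 11, and the livers of cows 996 and 1000 were above all others. Fibre genes in them reached 6.07 CPM at most, against 9.42 CPM in the others. APOA1 departed from the pattern, with 0.377 to 2.56 CPM in every muscle library whether the cow was one of the 5 or not. At most 196 CPM of a muscle library belonged to these 12 genes, which is small for genes with a muscle level of their own and large for genes near 0 in muscle. The source of the transcripts, in the animal or in handling, was not tested.

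**Figure D4:**
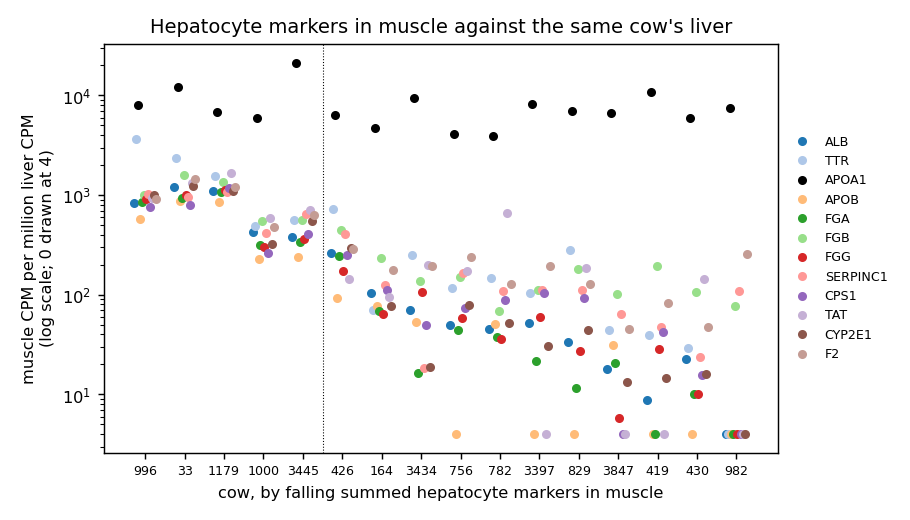
Muscle level of 12 hepatocyte genes for every 1000000 CPM in the liver of the same cow (CPM, log scale, 0 drawn at 4), for 16 cows ordered by the summed level in muscle, with the 5 cows over 50 CPM left of the dotted line. In those 5 cows the genes other than APOA1 lie in a band, with medians of 421 to 1230, and APOA1 lies higher in all cows.

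High levels were found at mid lactation. In muscle of the same cows the 12 genes summed to 2.11, 3.87 and 8.66 CPM at LP, to 1.57, 3.42 and 45.7 CPM at EL and to 3.54, 13.7 and 205 CPM at ML, all scaled together over 96 libraries. No library was over 50 CPM at LP or EL, and 5 were at ML. Cow 996 was highest at both EL and ML.

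**Figure D5:**
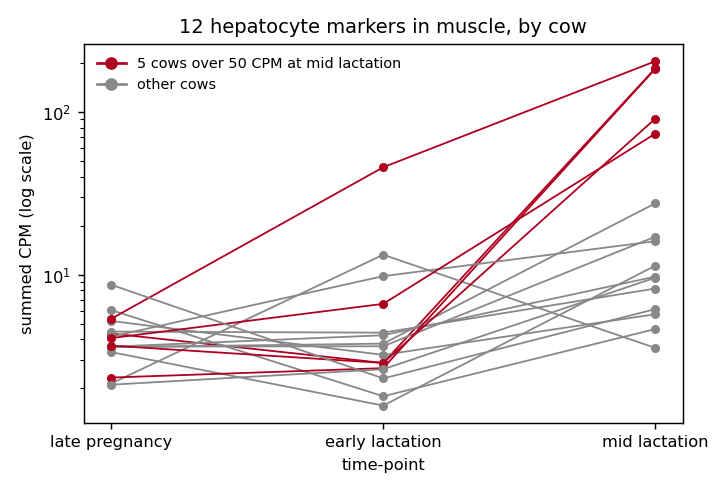
Summed level of 12 hepatocyte genes in muscle (CPM, log scale) at 3 time-points, 1 line per cow, with the 5 cows over 50 CPM at mid lactation in red. At late pregnancy every cow lies at or under 8.66 CPM, and at mid lactation the red lines end at 73.5 to 205 CPM.

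The tissue contrast at mid lactation was set against the other time-points by an interaction of tissue and time-point over all 96 libraries. The contrast itself was stable in kind. Of 12953 genes that could be tested at every time-point, 6446 were past 2-fold at ML, 5501 of them were past 2-fold in the same direction at both LP and EL, and none was past 2-fold in the opposite direction at either. These time-points share their cows.

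The size of the ratio differed from LP in 1387 of 14236 genes (9.74%, edgeR's quasi-likelihood test with Benjamini-Hochberg adjustment), 609 with a higher (4.28%) and 778 with a lower ratio at ML (5.47%). The genes with the smallest adjusted p were hepatocyte products. APOH, an apolipoprotein, was at 0, 0 and 0.140 CPM in muscle at LP and at 0, 0.233 and 5.97 CPM at ML, while its liver level was 2375 to 7437 CPM at LP and 1795 to 4497 CPM at ML, and the ratio was lower at ML by -5.23 ± 0.55. ITIH1, GC, C8A and VTN followed with -4.70, -5.36, -4.86 and -5.58. These differences lay in muscle levels near 0. Of the 12 hepatocyte genes 11 were called.

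Without the 5 cows, 351 of 14309 genes differed from LP, 340 of them among the 1387, and 0 of 12 hepatocyte genes was called. The cows were chosen by the muscle level of these 12 genes at ML, so the last count follows in part from the choice. APOH was then at -2.38 (adjusted p = 0.033 by edgeR's quasi-likelihood test) and C8A at -1.78 (adjusted p = 0.21 by the same test). The fit without them also has fewer cows. The median ratio of the 20 plasma proteins was 16.09 at LP and 14.89 at EL, against 12.15 at ML with all cows and 13.60 at ML without the 5.

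The ratio differed from EL in 5581 of 14236 genes (39.2%), 2272 with a higher (16%) and 3309 with a lower ratio at ML (23.2%), and in 4170 of 14309 without the 5 cows, 3766 of them again. All 12 hepatocyte genes were among the 5581, and 5 of 12 among the 4170, a count that the choice of cows by these genes bears on too. NFE2L1, a transcription factor that drives proteasome genes, was at 1354, 1936 and 2586 CPM in muscle at EL and at 521, 678 and 962 CPM at ML, with liver medians of 220 and 224 CPM, a difference of the log2 ratios of 1.46 ± 0.11. Among the electron transport genes 27 of 29 differed from EL, and the median ratio of the list was -1.43 at EL, -1.94 at LP and -2.03 at ML. In the citric acid cycle list 15 of 15 differed, with medians of -2.12, -2.66 and -2.73. Proteasome genes gave -1.38 at EL and -1.05 at ML, with 8 of 13 differing.

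Of the 7 genes of muscle protein breakdown 4 differed from EL and 2 from LP, and the list median was the ratio of FBXO32 at each time-point. The ratio of FBXO32 was -8.42 at EL, -7.08 at LP and -5.05 at ML, and the difference from EL in the joint fit was 3.22 (adjusted p = 2.83e-14 by edgeR's quasi-likelihood test). TRIM63 had too few liver counts for such a comparison, and its difference from EL was not called (adjusted p = 0.30 by the same test). LPIN1, which makes diacylglycerol, went from -3.92 at EL to -1.31 at ML, and PDK4 from -5.81 at EL to -2.85 at ML, and both differences were called. Among the 8 gluconeogenesis genes 5 differed from EL, and the largest difference was that of PC, whose ratio was 6.57 at EL and 3.41 at ML.

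The 2 genotypes were pooled, and the tissue contrast was tested for a difference between them. None of 13346 genes had a ratio that differed between Fert+ and Fert- by edgeR's quasi-likelihood test with Benjamini-Hochberg adjustment, the smallest adjusted p was 0.16, and 1131 genes had an unadjusted p under 0.05. The nearest were PALM2, with a ratio higher by 1.55 ± 0.28 log2 in Fert+, and RNF125, a ubiquitin ligase, higher by 2.16 ± 0.39. RNF125 was at 7.82, 21.0 and 41.9 CPM in Fert+ livers and at 3.1, 7.51 and 16.3 CPM in Fert- livers, and at 0.383 and 0.631 CPM in the median muscle library. Other settings called a few genes, named here after their values were seen. With no scaling PALM2 was called (1.6). DESeq2 called 5, namely PALM2, RNF125, TMEM51 with -0.92, LGALS1, the lectin galectin, with -0.89 and 1 gene with no symbol. Without the 5 cows set apart for hepatocyte genes 10 were called, of which RNF125 (2.55), TMEM51 (-1.14) and SORT1, the sorting receptor sortilin (1.17), have a symbol. With 8 cows a genotype, a p that misses the threshold does not show that the ratios were equal.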

How the data were processed

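Polyadenylated RNA from liver and semitendinosus biopsies was sequenced as read pairs on libraries pooled by 24. The authors trimmed the reads, aligned them with STAR to the bovine genome build UMD3.1 with its Ensembl annotation, kept proper pairs and counted read pairs per gene with featureCounts, and the deposited values are these raw counts per gene and library, with no normalization. The library kit does not mark strand, so overlapping genes on opposite strands cannot be separated, and near-identical gene copies may share reads. Another 96 columns in tables of the whole series could not be tied to single samples and were not used.

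Genes were filtered with filterByExpr by tissue, leaving 13346 of 24616. Liver minus muscle was tested with edgeR's quasi-likelihood F test (edgeR 4.0.16, limma 3.58.1, R 4.3.3), with TMM factors, robust dispersion and cow as a block. Calls were made at a Benjamini-Hochberg adjusted p below 0.05, and past 2-fold with glmTreat against a log2 ratio of 1. Tissue by genotype was tested in the same 32 libraries and tissue by time-point over 96 libraries with cow within tissue as a block, and ratios at the other time-points were fitted within each. Library values were tested by exact sign changes over cows. DESeq2 1.42.0 was an alternative, and the steps were tested on simulated counts. In these both tissues were drawn from muscle levels and few genes were changed, so the simulation does not cover tissues in which most genes differ. The study made no test between tissues.

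Pairing comes from the cow number in the titles, so both biopsies are of 1 animal. The deviations of a cow's libraries from their tissue means correlated at -0.07 to 0.27 over genes (median 0.11, over 0.1 in 9 of 16 cows), against a median of -0.02 with other cows. The 240 pairs of libraries within a tissue all differed by more than sampling noise.

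The genes named are members of the gene lists and enzyme pairs that matched 1 identifier (421 of 801 list entries, with 13 that matched several left out), the 10 genes with the highest median share of counts in each tissue, the 5 with the smallest adjusted p for each interaction, and each list's members with the highest and lowest ratio. The members, lists and tests were chosen with earlier results of these data known. Results for some members of these lists are not reported here.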

Additional observations from a re-analysis of the deposited data

Results flagged for a closer look

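The difference between liver and muscle at mid lactation was not that of the other time-points in 1387 genes against late pregnancy and in 5581 genes against early lactation, each by a test of the difference itself. Differences here are of log2 ratios of liver over muscle, with mid lactation first.

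Against late pregnancy the genes with the smallest adjusted p were APOH (-5.23), ITIH1 (-4.70), GC (-5.36), C8A (-4.86) and VTN (-5.58), all made by the liver. In muscle at late pregnancy their highest libraries were at 0.140, 0.128, 0.173, 0.0597 and 0.116 CPM, and at mid lactation at 5.97, 6.14, 8.89, 2.31 and 8.42 CPM. Without the 5 cows whose muscle held over 50 CPM of hepatocyte genes the differences were -2.38, -2.17, -2.64, -1.78 and -2.91.

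Against early lactation the 5 genes were NFE2L1 (1.46) and 4 without a symbol. ENSBTAG00000003935 differed by 2.21, with muscle medians of 244 CPM at early and 61.0 CPM at mid lactation. ENSBTAG00000036087 differed by 4.66, with muscle medians of 8.40 and 0.455 CPM. ENSBTAG00000039050 and ENSBTAG00000013291 differed by -2.15 and -2.17, with muscle medians of 6.63 and 6.87 CPM at early and 22.8 and 23.2 CPM at mid lactation. In all 5 genes the liver medians of these time-points differed by less than the muscle medians did.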

How the results depend on the processing

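The counts of genes that differed between liver and muscle stayed within 1.5 times their value, in each direction, under all 27 alternatives (other scalings, no filter, no robust estimation, no replicate block, 1 genotype alone, DESeq2, and cows left out). Leaving out 1 cow gave 11830 to 11909 genes, and 6698 to 6760 past 2-fold. Without the replicate block, that is without the pairing by cow, 11878 genes were called and 6715 past 2-fold, 0 differed between genotypes, and 1036 and 5159 differed from LP and EL. With no filter 14371 of 19947 genes were called. The tissue by genotype count rose from 0 to 1 with no scaling, to 5 with DESeq2 and to 10 without the 5 cows with hepatocyte transcripts in muscle, and the cause was not tested. Without these cows, an alternative chosen after seeing the data, the count against LP fell from 1387 to 351. Of 148 genes named, 136 kept their call and direction in every alternative in which they were tested, and CFD was not tested in 3 of them. This tally is of calls at an adjusted p below 0.05 and does not cover calls past 2-fold. With no scaling the sign turned for HADHA (0.24), AASS (0.18), KLF6 (0.28), UBB (0.24) and TMEM51 (0.00198). In Fert- cows alone it turned for FASN (-0.0756), SCD (-0.17) and TMEM51 (0.11), in Fert+ cows alone for TFRC (-0.18) and UBB (0.0161), without the 5 cows with hepatocyte transcripts for TFRC (-0.23) and KLF6 (0.0162), and without the block for TFRC (-0.10). With 1 cow left out TFRC ran from -0.0315 to 0.16 and KLF6 from -0.15 to 0.00137. TFRC was called with no scaling (0.42), AASS without the 5 cows with a library in the set of 13 (-0.34), where LDHB was not (0.36), and ANGPTL4 was not called without the block (-0.68). LDHB was not called in Fert+ cows alone either (0.29). Genes with at least 10 counts instead of 1 numbered 13224.5 in the median liver and 12017 in the median muscle library. Ratios of genes under a few counts in 1 tissue are limited by depth.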
